A study of Mus musculus with 12 samples.

Results

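Macrophage and Kupffer cell markers were followed across 12 Affymetrix 430A arrays of whole mouse liver. The 10 genes were chosen by name, with earlier results of these data known. Shares of them set against all probe sets are therefore descriptions of a chosen set. Every probe set annotated with exactly 1 gene symbol among them was kept. This gave 12 of the 22626 probe sets tested and 10 of 12393 genes with a single-symbol probe set. The set holds 4 genes used as Kupffer cell markers (Clec4f, Vsig4, Cd5l and Marco) and 6 general macrophage genes (Csf1r, Adgre1, Cd68, Mpeg1, Lyz2 and C1qa). Csf1r has 3 probe sets and is represented by the one with the highest mean over all arrays, and each other gene has 1.

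Kupffer cells are the macrophages resident in the liver sinusoids. They take up bacteria, immune complexes, damaged erythrocytes and lipoproteins from portal blood, and they depend on signals through the CSF1 receptor and on lineage factors such as PU.1. They are outnumbered by hepatocytes, so in RNA from whole liver their transcripts are measured against a background made mostly by another cell type, and fewer cells of a type and less RNA per cell cannot be told apart.

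The mice were male, aged 6 to 8 weeks, and were labelled C57BL/6 in every group. The 4 groups were POR-null mice on the quercetin diet, POR-null mice on the control diet, wild-type mice on the quercetin diet and wild-type mice on the control diet. POR-null mice lack cytochrome P450 reductase, the electron donor of the microsomal cytochromes P450. The sources used here do not give the cell type in which the gene was removed or the means of its removal, and the disrupted gene itself was not analysed here. All mice spent 14 days on a soya-free powdered diet (RM3). Quercetin, a plant flavonol, was then mixed into that diet at 6.2 g per kg, stated too as 7 mg for each mouse, and the animals were killed 24 h later. One array held RNA pooled from 3 mice, with 3 arrays per group, so p-values measure the spread between pools and not between single animals.

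Array medians lay between 5.93 and 5.99 log2 units, and arrays of the same group correlated at r = 0.988 to 0.993. The hepatocyte gene Ttr averaged 13.1 log2 units over the 12 arrays. The summed marker level of the exocrine pancreas (10 genes measured, as the mean of centred values) ranged from -0.60 to 2.24 log2 units in POR-null quercetin livers and from -0.92 to 0.82 in POR-null control livers, against -1.22 to 0.73 in wild-type quercetin livers and -0.82 to 1.01 in wild-type control livers. For the transferrin receptor control probe sets, the log2 signal at the 3′ end minus that at the 5′ end, a measure of RNA integrity, averaged 1.28 ± 0.09 in POR-null quercetin, 1.28 ± 0.10 in POR-null control, 1.18 ± 0.11 in wild-type quercetin and 1.05 ± 0.07 in wild-type control livers (SD, n = 3). For the Pcx controls the same measure averaged 2.01 in POR-null quercetin, 2.15 in POR-null control, 2.35 in wild-type quercetin and 2.21 in wild-type control livers. In that order it was 0.92, 0.97, 0.84 and 0.92 for beta-actin and -0.16, -0.15, -0.17 and -0.19 for Gapdh. The order of the genotypes thus differed between controls. The part of tissue admixture and of RNA integrity in the results was not tested.

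Since the markers moved together from array to array, the 250 bases before the annotated start of their genes were read from RefSeq (GRCm38.p6), where 7 of the 10 genes had an entry. The 5 sequences below belong to the 2 Kupffer cell markers with a GGAAGT match, to the lysozyme gene Lyz2 and its neighbouring copy Lyz1, whose probe sets bear on the same transcript family, and to Mpeg1, the gene that separated the genotypes most clearly. Capitals mark GGAAGT or its reverse complement ACTTCC, which hold the GGAA core bound by the ETS family, to which PU.1 belongs. All run 5′ to 3′ on the strand of the gene and end at the base before the start.
Clec4f: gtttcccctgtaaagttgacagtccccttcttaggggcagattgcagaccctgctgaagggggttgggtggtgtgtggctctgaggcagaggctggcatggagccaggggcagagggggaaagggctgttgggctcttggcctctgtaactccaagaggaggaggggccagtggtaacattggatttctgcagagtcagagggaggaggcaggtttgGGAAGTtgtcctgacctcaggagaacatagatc
Vsig4: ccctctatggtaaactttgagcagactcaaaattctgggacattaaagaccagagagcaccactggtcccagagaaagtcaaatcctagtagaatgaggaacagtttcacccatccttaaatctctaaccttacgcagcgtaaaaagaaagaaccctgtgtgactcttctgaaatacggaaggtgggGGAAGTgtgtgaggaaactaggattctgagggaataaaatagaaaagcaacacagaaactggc
Lyz2: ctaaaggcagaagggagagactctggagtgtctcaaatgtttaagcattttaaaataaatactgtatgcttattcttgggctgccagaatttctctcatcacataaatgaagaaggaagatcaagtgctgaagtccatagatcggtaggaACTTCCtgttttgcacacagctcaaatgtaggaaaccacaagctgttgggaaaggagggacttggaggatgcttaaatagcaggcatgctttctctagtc
Lyz1: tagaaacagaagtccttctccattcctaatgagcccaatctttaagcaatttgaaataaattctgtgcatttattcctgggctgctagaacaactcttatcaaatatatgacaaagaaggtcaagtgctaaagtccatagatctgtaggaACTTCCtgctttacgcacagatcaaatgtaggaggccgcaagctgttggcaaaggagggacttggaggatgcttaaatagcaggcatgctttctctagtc
Mpeg1: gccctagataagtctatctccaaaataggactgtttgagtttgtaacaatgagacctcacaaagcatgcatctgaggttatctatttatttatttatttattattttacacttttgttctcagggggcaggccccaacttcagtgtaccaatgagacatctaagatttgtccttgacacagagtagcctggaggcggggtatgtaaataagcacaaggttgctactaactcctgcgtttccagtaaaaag

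These windows lie at chr6:83656117-83656366, minus strand (Clec4f), chrX:96293439-96293688, minus strand (Vsig4), chr10:117282273-117282522, minus strand (Lyz2), chr10:117292869-117293118, minus strand (Lyz1) and chr19:12460520-12460769, plus strand (Mpeg1). GGAAGT, searched on both strands, occurred in 3 of the 7 marker promoters against 19.7% of the 32851 promoters in the table. The match began 33 bases before the start in Clec4f, 63 in Vsig4 and 100 in Lyz2 and Lyz1 alike. GAGGAA (reverse complement TTCCTC), which also holds a GGAA core, occurred in 4 of 7 against 23.3%. Mpeg1 held neither motif, though its sequence does contain TTCC, the reverse complement of GGAA. Over 250 bases Lyz2 and Lyz1 were identical at 152 positions (60.8%), and over the nearest 100 bases at 92 (92%). Both motifs were picked after the sequences had been read, and a match is a description of letters only.

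The comparison of POR-null with wild-type liver asked how loss of the reductase altered hepatic expression, and it was made on each diet and on the average of both. On the average of both diets 4 of the 10 markers were higher in POR-null liver by limma at an adjusted p of 0.05, namely Mpeg1, Lyz2, Cd5l and C1qa, and 0 were lower. Of all probe sets 7.58% were called in either direction in the same contrast. On each diet alone Mpeg1 was the 1 marker called, against 1.16% of all probe sets on the control diet and 2.33% on the quercetin diet. The median marker difference was 0.50 log2 units on the control diet (9 of 10 above 0), 0.32 on the quercetin diet (8 of 10) and 0.41 on average (8 of 10). Over all probe sets the medians were -0.01, -0.02 and -0.02, with 46.6%, 43.9% and 43.6% above 0. As the markers were chosen with earlier results of these data known, setting them against all probe sets is no test of the set.

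**Figure D1:**
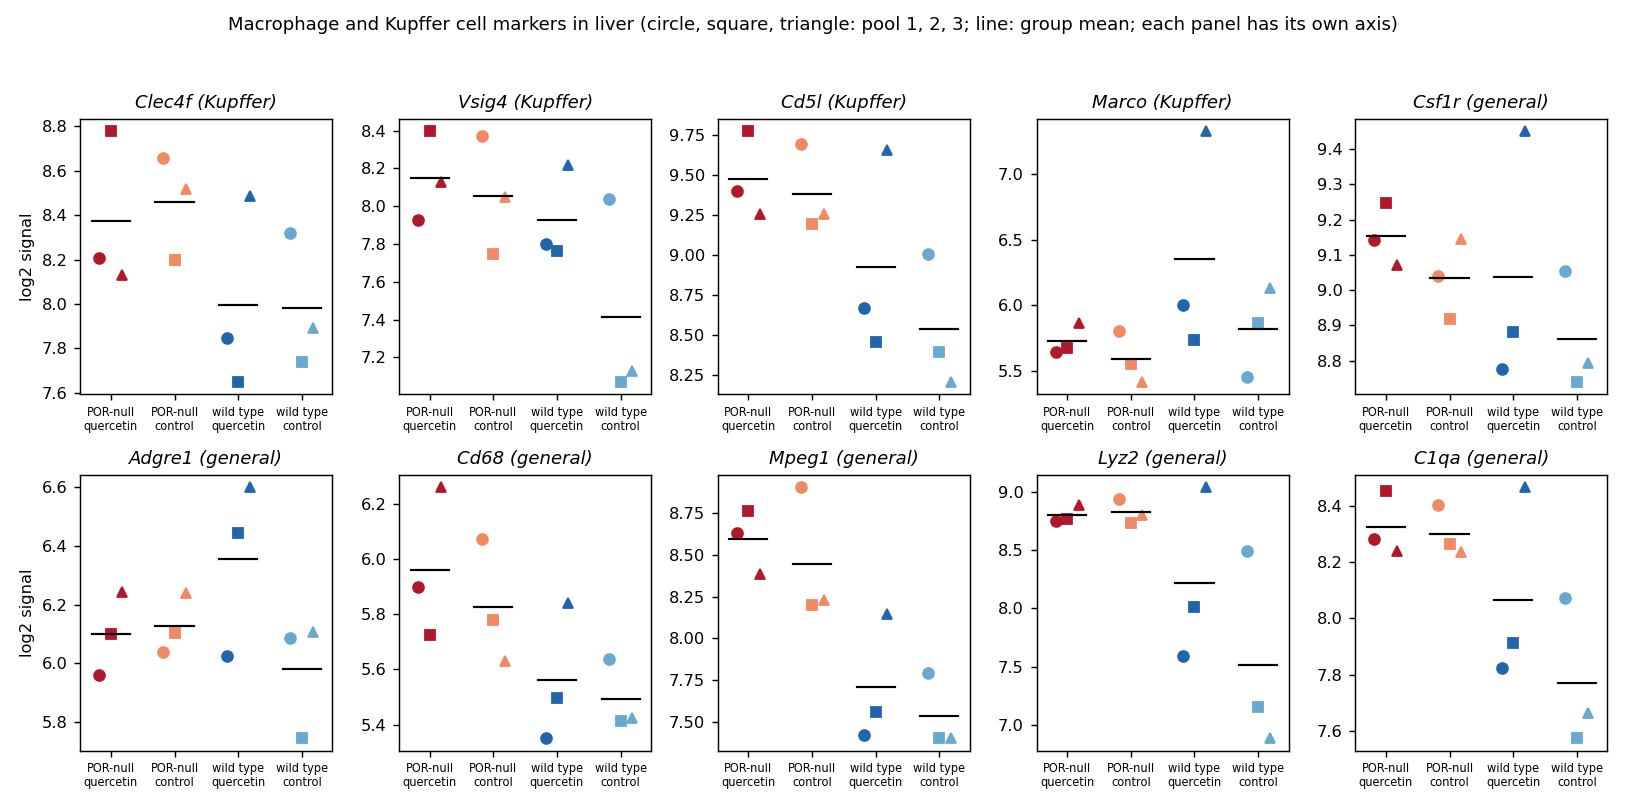
The log2 signal of the 10 markers (vertical axis, a scale of its own in each panel) is plotted for every array of the 4 groups, with circles, squares and triangles for pools 1, 2 and 3 and a line at the group mean. All 6 POR-null arrays lie above all 6 wild-type arrays for Mpeg1, and the triangle of the wild-type quercetin group is the highest wild-type point in all 10 panels.

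Among the general macrophage genes Mpeg1, which encodes the pore-forming protein perforin-2 of phagocytes, separated the genotypes completely. Its log2 signal was 8.63, 8.77 and 8.38 in POR-null quercetin arrays 1 to 3 and 8.90, 8.20 and 8.23 in POR-null control arrays 1 to 3. In wild type it was 7.42, 7.56 and 8.15 in the quercetin arrays and 7.80, 7.40 and 7.40 in the control arrays. The lowest POR-null array (8.20) stood just above the highest wild-type array (8.15), and this separation across 6 against 6 arrays was shared by 1.92% of all probe sets in the same direction. Mpeg1 rose in POR-null liver by 0.91 log2 units on the control diet (SE 0.20, limma adjusted p = 0.0480), by 0.88 on the quercetin diet (SE 0.20, adjusted p = 0.0359) and by 0.90 on average (SE 0.14, adjusted p = 0.00207), a 1.86-fold difference on average. The group means ran 8.59 in POR-null quercetin, 8.44 in POR-null control, 7.71 in wild-type quercetin and 7.53 in wild-type control livers, and neighbours that differ by diet alone overlapped. The average difference passed in every alternative run for it, and with single arrays left out it ranged from 0.78 without POR-null control array 1 to 1.01 without wild-type quercetin array 3. On the control diet the call was lost when any of wild-type control arrays 2 and 3 and POR-null control arrays 1 and 2 was left out. On the quercetin diet it was lost when any of arrays 1 and 2 of either genotype was left out.

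Lyz2 encodes lysozyme M, the enzyme of myeloid cells that cleaves bacterial cell walls. It read 8.75, 8.77 and 8.89 in POR-null quercetin arrays and 8.94, 8.73 and 8.80 in POR-null control arrays. In wild type it read 7.59, 8.01 and 9.04 in the quercetin arrays and 8.49, 7.15 and 6.89 in the control arrays. The POR-null arrays kept within 0.21 log2 units of each other while the wild-type arrays spanned 2.15, with quercetin array 3 above every POR-null array and control arrays 2 and 3 at the bottom. Lyz2 was higher in POR-null liver by 0.95 log2 units on average (SE 0.25, limma adjusted p = 0.0326). On the control diet, where the groups did not overlap, the difference was 1.31 (SE 0.35, adjusted p = 0.0907), and on the quercetin diet it was 0.59 (SE 0.35, adjusted p = 0.427), and neither passed.

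The neighbouring gene Lyz1, lysozyme P, is a close copy, and probes can read both transcripts. Of its 3 probe sets, both with names ending in _x_at followed Lyz2 across the 12 arrays (r = 0.908 and 0.914), while the other one did not (r = -0.44). Their average genotype differences were 0.89 (limma adjusted p = 0.0317) and 1.06 (adjusted p = 0.0763) for the first pair and -0.11 (adjusted p = 0.475) for the other. That ending marks probe sets that may cross-hybridise, so how the signal divides between the 2 lysozyme genes is uncertain. The Lyz1 probe set that did not follow Lyz2 had a mean signal of 5.79, below the median of all values (5.96). The pair that followed it averaged 8.27 and 7.08.

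C1qa encodes the A chain of C1q, the recognition subunit of the classical complement pathway, which macrophages secrete. It read 8.28, 8.45 and 8.24 in POR-null quercetin arrays and 8.40, 8.26 and 8.24 in POR-null control arrays, against 7.82, 7.91 and 8.46 in wild-type quercetin arrays and 8.07, 7.58 and 7.67 in wild-type control arrays. All POR-null arrays lay above all wild-type arrays but quercetin array 3, which was the highest of the 12. The average difference was 0.39 log2 units (SE 0.11, limma adjusted p = 0.0451). It was 0.53 on the control diet (adjusted p = 0.122) and 0.26 on the quercetin diet (adjusted p = 0.434).

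Cd68 encodes macrosialin, a glycoprotein of late endosomes and lysosomes. Its signal was 5.90, 5.72 and 6.26 in POR-null quercetin arrays and 6.07, 5.78 and 5.63 in POR-null control arrays, against 5.35, 5.50 and 5.84 in wild-type quercetin arrays and 5.64, 5.41 and 5.43 in wild-type control arrays. The groups overlapped on each diet, and the average difference of 0.37 log2 units (SE 0.11) just missed the threshold (limma adjusted p = 0.0634). The mean Cd68 signal over the arrays, 5.71, lay below the median of all values (5.96). Csf1r, the receptor for CSF1 and IL-34, ranged from 8.92 to 9.25 over the POR-null arrays and from 8.74 to 9.45 over the wild-type arrays. Its 3 probe sets differed between genotypes by 0.14, 0.08 and 0.09 on average, none called, and correlated with each other at r = 0.708 to 0.835. On the quercetin diet they differed by 0.12, -0.13 and 0.06 in the same order, so their signs were not alike. Adgre1, which encodes an adhesion receptor widely used to stain mouse macrophages, ranged from 5.96 to 6.24 in POR-null and from 5.75 to 6.60 in wild-type livers, with an average difference of -0.05 (SE 0.10, adjusted p = 0.802).

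Of the Kupffer cell markers Cd5l was the 1 called. It encodes a secreted scavenger receptor protein, also known as apoptosis inhibitor of macrophages. Its signal was 9.40, 9.78 and 9.26 in POR-null quercetin arrays and 9.70, 9.20 and 9.26 in POR-null control arrays, against 8.67, 8.46 and 9.66 in wild-type quercetin arrays and 9.01, 8.40 and 8.21 in wild-type control arrays. As with C1qa, wild-type quercetin array 3 alone reached the POR-null range. Cd5l was higher by 0.70 log2 units on average (SE 0.19, limma adjusted p = 0.0371), by 0.85 on the control diet (adjusted p = 0.141) and by 0.55 on the quercetin diet (adjusted p = 0.313).

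Clec4f, a C-type lectin that in rodents marks Kupffer cells, read 8.21, 8.78 and 8.13 in POR-null quercetin arrays and 8.66, 8.20 and 8.52 in POR-null control arrays, against 7.85, 7.65 and 8.49 in wild-type quercetin arrays and 8.32, 7.74 and 7.89 in wild-type control arrays. Vsig4, the complement receptor that binds C3 fragments on particles, read 7.93, 8.40 and 8.13 in POR-null quercetin arrays and 8.37, 7.74 and 8.05 in POR-null control arrays, against 7.80, 7.76 and 8.22 in wild-type quercetin arrays and 8.04, 7.07 and 7.13 in wild-type control arrays. For both genes wild-type quercetin array 3 and wild-type control array 1 reached into the POR-null range, and for Vsig4 so did wild-type quercetin arrays 1 and 2. The average difference was 0.43 for Clec4f (SE 0.15, limma adjusted p = 0.110) and 0.43 for Vsig4 (SE 0.16, adjusted p = 0.120), which did not pass.

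Marco, a class A scavenger receptor also made by macrophages outside the liver, was the 1 marker with differences below 0 on both diets. It read 5.64, 5.67 and 5.87 in POR-null quercetin arrays and 5.81, 5.55 and 5.42 in POR-null control arrays, against 6.00, 5.73 and 7.33 in wild-type quercetin arrays and 5.45, 5.86 and 6.13 in wild-type control arrays. One array, wild-type quercetin array 3, stood more than 1 log2 unit above the other 11. The average difference was -0.43 log2 units (SE 0.21, limma adjusted p = 0.245), and without that array it was -0.18. The mean Marco signal over the arrays, 5.87, lay near the median of all values (5.96).

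**Figure D2:**
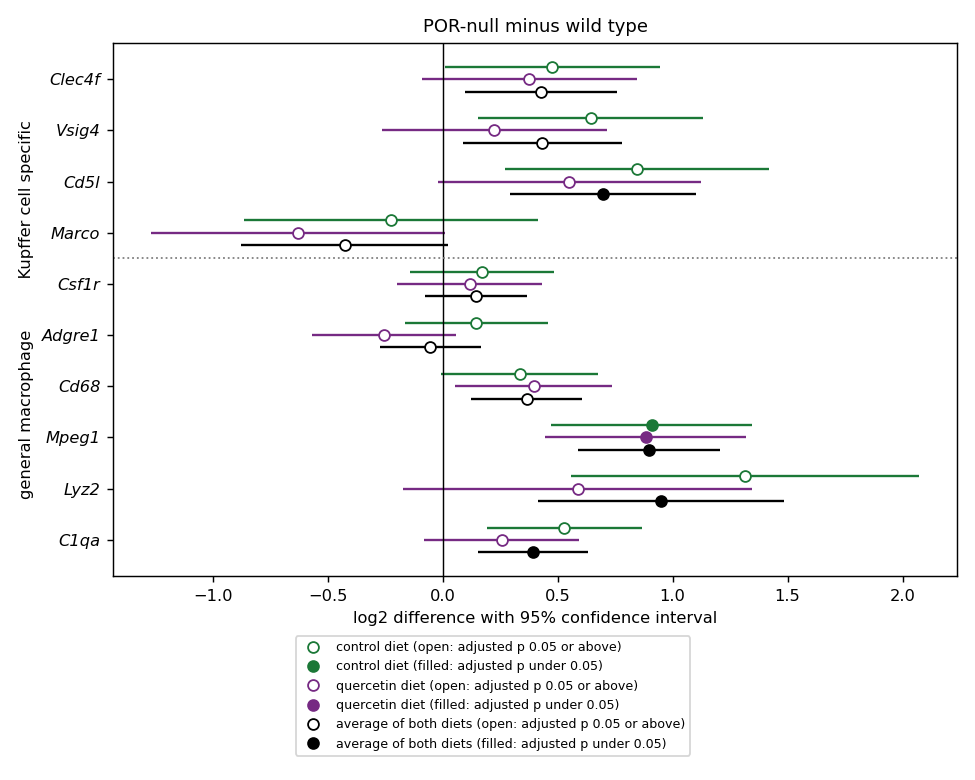
Log2 differences of POR-null minus wild type (horizontal axis) are shown for the 10 markers with 95% confidence intervals from limma, by diet and as the average of both, with filled points where the adjusted p is under 0.05. Filled points appear for Mpeg1 in all 3 contrasts and for Lyz2, Cd5l and C1qa on average, and Marco is the gene with all 3 points below 0.

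Arrays of the groups did not overlap on the control diet for 4 of the 10 markers (Mpeg1, Lyz2, Cd5l and C1qa), each higher in POR-null, against 8.04% of all probe sets. On the quercetin diet this held for Mpeg1 alone, against 11.9%. The count of called markers moved when single arrays were left out. On the control diet 5 markers were called without wild-type control array 1 (Vsig4, Cd5l, Lyz2, Mpeg1 and C1qa). On average 6 were called without wild-type quercetin array 3 (Clec4f, Cd5l, Cd68, Lyz2, Mpeg1 and C1qa) and 5 without wild-type control array 1. The average count fell to 1, Mpeg1, when any one of 6 arrays was left out, namely wild-type control arrays 2 and 3, wild-type quercetin arrays 1 and 2, and array 1 of each POR-null group. It was 2 when array 2 of either POR-null group, or array 3 of the quercetin-fed one, was left out.

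Kupffer cell markers were then compared with the general macrophage genes. In POR-null against wild-type liver the median difference of the 4 Kupffer cell markers was 0.56 log2 units on the control diet (0 of 4 called), 0.30 on the quercetin diet (0 of 4) and 0.43 on average (1 of 4). For the 6 general genes it was 0.43 on the control diet (1 of 6 called), 0.33 on the quercetin diet (1 of 6) and 0.38 on average (3 of 6). The median of the Kupffer cell markers was thus the higher one on the control diet and on average, and the lower one on the quercetin diet. Array by array, the mean of the centred Kupffer cell markers minus that of the general genes was -0.08 ± 0.18 in POR-null quercetin, -0.08 ± 0.11 in POR-null control, 0.12 ± 0.26 in wild-type quercetin and 0.05 ± 0.06 in wild-type control livers (SD, n = 3). With Marco left out, a step chosen after its values were seen, the 4 group means of that quantity lay between -0.04 and 0.05. In both versions the arrays of the genotypes overlapped on each diet, and no test was run on these means.

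The members varied together between pools of the same group. The mean of the 10 centred markers was 0.14, 0.32 and 0.20 in POR-null quercetin arrays 1 to 3 and 0.35, 0.03 and 0.11 in POR-null control arrays, against -0.31, -0.25 and 0.48 in wild-type quercetin arrays and -0.05, -0.53 and -0.48 in wild-type control arrays. The POR-null arrays were all above 0, and 5 of 6 wild-type arrays were below it. Wild-type quercetin array 3 was the highest wild-type array for 10 of 10 markers, and wild-type control array 1 was the highest of its group for 8 of 10. As the markers varied together, these counts are not independent observations. The shares of all probe sets with the same order of arrays were not taken. The SD was larger over the 6 wild-type than over the 6 POR-null arrays for 9 of 10 markers, against 55.7% of all probe sets. For Lyz2 it was 0.083 log2 units over the POR-null arrays and 0.82 over the wild-type arrays. Within groups, the SD of each of the 10 markers exceeded the median of all probe sets (0.135).

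**Figure D3:**
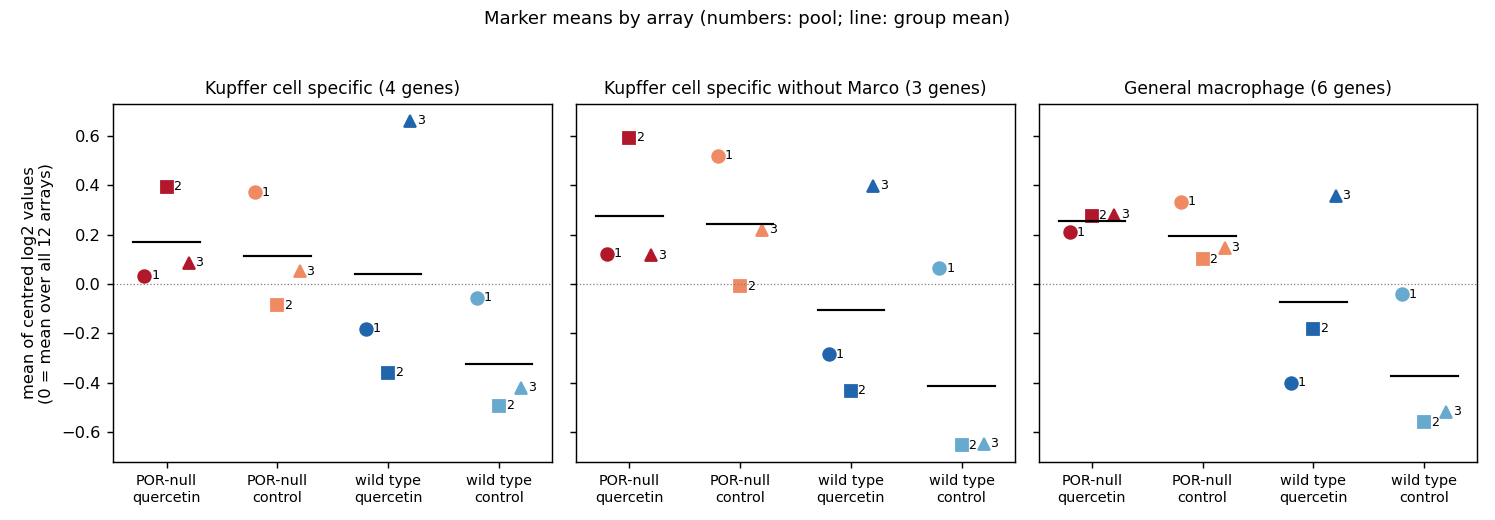
The mean of centred log2 values (vertical axis, 0 being the mean over all 12 arrays) is plotted per array for the 4 Kupffer cell markers, for 3 of them without Marco and for the 6 general macrophage genes, with pool numbers beside the points and lines at the group means. In each panel wild-type quercetin array 3 lies apart from arrays 1 and 2 of its group and within or above the POR-null range.

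Over the 12 arrays the 45 marker pairs had a median Pearson correlation of 0.748, and after subtraction of group means it was 0.637. These arrays share genotype and diet groups and processing, so the values are descriptions. The 9 pairs with Marco had a median of 0.049, and 0.489 after subtraction of group means. The 36 pairs without Marco had medians of 0.785 and 0.719. Cd5l and C1qa, from the different marker groups, formed the closest pair (r = 0.967), and Adgre1 was loosely tied to the others (median r = 0.414).

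**Figure D4:**
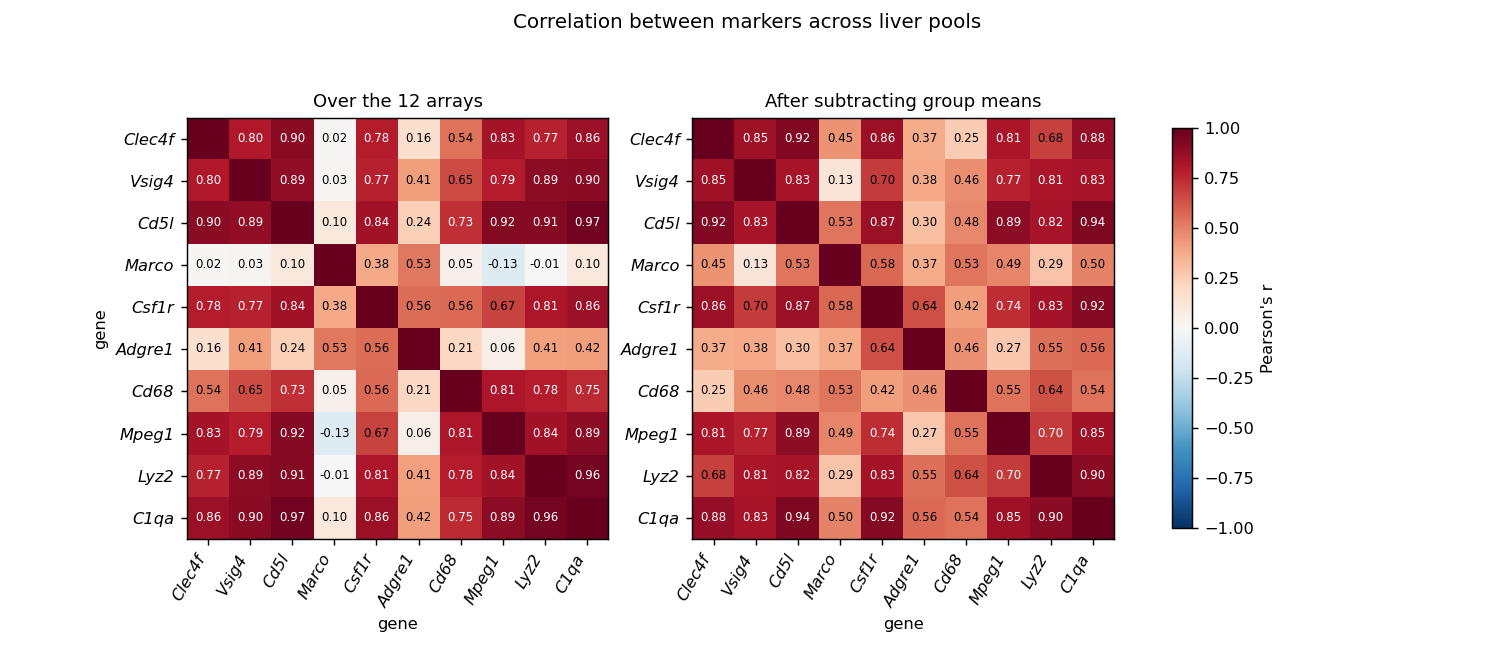
Pearson correlations between the 10 markers (both axes list the genes) are shown over the 12 arrays on the left and after subtraction of the group means on the right, with red for positive and blue for negative values. The row of Marco is pale on the left (-0.13 to 0.53) and redder on the right (0.13 to 0.58), and the other rows are mostly red in both.

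Among 7752 other genes, the 10 whose signal was most like the mean of the markers over the 12 arrays were Ces1g (r = 0.946), C1qb (0.937), Snx5, Gphn, C1qc (0.927), Nudt1, Ctss (0.922), Rab14, Hscb and Tmco1 (0.916). After subtraction of group means they were Tmsb4x (r = 0.959), C1qb (0.953), Ctss (0.922), Msn, Hpgd, Slc47a1, Ces1g, Tyrobp, Hibch and Snx5 (0.895). C1qb and C1qc encode the remaining chains of C1q, Ctss a lysosomal protease and Tyrobp a myeloid signalling adaptor. The hepatic enzyme gene Ces1g was on both lists, so likeness to the markers was not limited to macrophage genes.

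Other genes used as markers of the same cells moved less uniformly. Of 33 further macrophage genes 22 lay above 0 in POR-null against wild-type liver on average, with a median of 0.07 log2 units. The lysosomal proteases Ctss (0.66, limma adjusted p = 0.00991) and Ctsb (0.32, adjusted p = 0.00580) were higher, and the actin-bundling protein gene Lcp1 (-0.36, adjusted p = 0.00931) and the endotoxin receptor gene Tlr4 (-0.33, adjusted p = 0.0263) were lower. The mean signal of Tlr4, 5.79, lay below the median of all values (5.96), as did those of 12 of the 33 genes. Of 18 further Kupffer cell genes 8 lay above 0, with a median of -0.05, and the 1 called was Abcc3 (0.57, adjusted p = 0.00485), an efflux transporter that hepatocytes also make. The scavenger receptor gene Cd163 had a difference of -0.31 (adjusted p = 0.0994), at a mean signal of 4.70, below the median of all values (5.96). Of 16 genes of monocytes and of recruited or lipid-associated macrophages 10 lay above 0 and 4 were higher: Cd36 by 2.08 (adjusted p = 8.32e-06), Fabp5 by 0.88, Lpl by 0.74 and Plac8 by 0.39. In this list 10 of 16 genes had a mean signal below the median of all values, Fabp5 (5.88) among them. Cd36, Fabp5 and Lpl handle fatty acids and are also made by other cells of the liver.

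Among 12 inflammatory mediators of macrophages 0 were called by limma, and the median was -0.03 (4 of 12 above 0). Of these 12 genes 9 had a mean signal below the median of all values (5.96), so the lack of calls says little. The CSF1 receptor ligands Csf1 and Il34 differed by 0.00017 and 0.05. Of the antigen presentation genes 0 of 6 were called (median 0.20, 4 of 6 above 0), with H2-Eb1 at 0.51 (adjusted p = 0.0894) and H2-Aa at 0.47 (adjusted p = 0.122). Markers of sinusoidal endothelium (median -0.02, 13 genes), stellate cells and fibroblasts (0.03, 12 genes), neutrophils (-0.04, 8 genes), dendritic cells (-0.02, 6 genes) and erythroid cells (0.01, 4 genes) had 0 calls each. Here too 5 of 6 dendritic and 3 of 4 erythroid genes had a mean signal below the median of all values. Of the stellate cell and fibroblast genes 7 of 12 lay above 0. Among these were Col1a2 at 0.29 (limma adjusted p = 0.0637) and Col3a1 at 0.54 (adjusted p = 0.0682), which just missed the threshold. The mean signal of Col3a1, 5.41, lay below the same median. Exocrine pancreas markers also had 0 calls, but 10 of 10 lay above 0 on average, with a median of 0.47 log2 units against 0.41 for the 10 macrophage markers. By diet the pancreas median was -0.07 on the control diet (4 of 10 above 0), where the macrophage markers had 0.50, and 0.996 on the quercetin diet (10 of 10), where they had 0.32. The highest pancreas level was that of POR-null quercetin array 3 (2.24). One gene each was lower among bile duct markers (Spint1, -0.70), lymphocyte markers (Nkg7, -0.36) and hepatocyte markers (Hnf4a, -0.31). The mean signal lay below the median of all values for 6 of 7 bile duct genes. For lymphocytes this held for 8 of 13 genes, Nkg7 (5.87) among them.

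The quercetin comparison asked whether 24 h of the flavonol altered the liver in each genotype. None of the 10 markers passed in wild-type or POR-null liver by limma, where 0% of all probe sets were called in either genotype (1942 of 22626 at an unadjusted p under 0.05 in wild type and 1581 in POR-null liver). Of the markers 2 in wild type and 0 in POR-null liver had an unadjusted p under 0.05. In wild type 10 of 10 markers had a difference above 0, with a median of 0.34 log2 units against -0.00367 over all probe sets. The sizes ranged from 0.01 for Clec4f to 0.70 for Lyz2 (SE 0.35, adjusted p = 0.612), with Marco at 0.54, Vsig4 at 0.52, Cd5l at 0.39 and Adgre1 at 0.38. Csf1r is counted by its representing probe set (0.17), and its other probe sets were at 0.39 and -0.014. Each of the 10 adjusted p-values was 0.523 or above by limma. Without wild-type quercetin array 3 the median was 0.04 and the differences of Clec4f, Csf1r, Cd68 and Mpeg1 were below 0. In POR-null liver 7 of 10 were above 0, with a median of 0.10 and a range from -0.09 to 0.15.

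**Figure D5:**
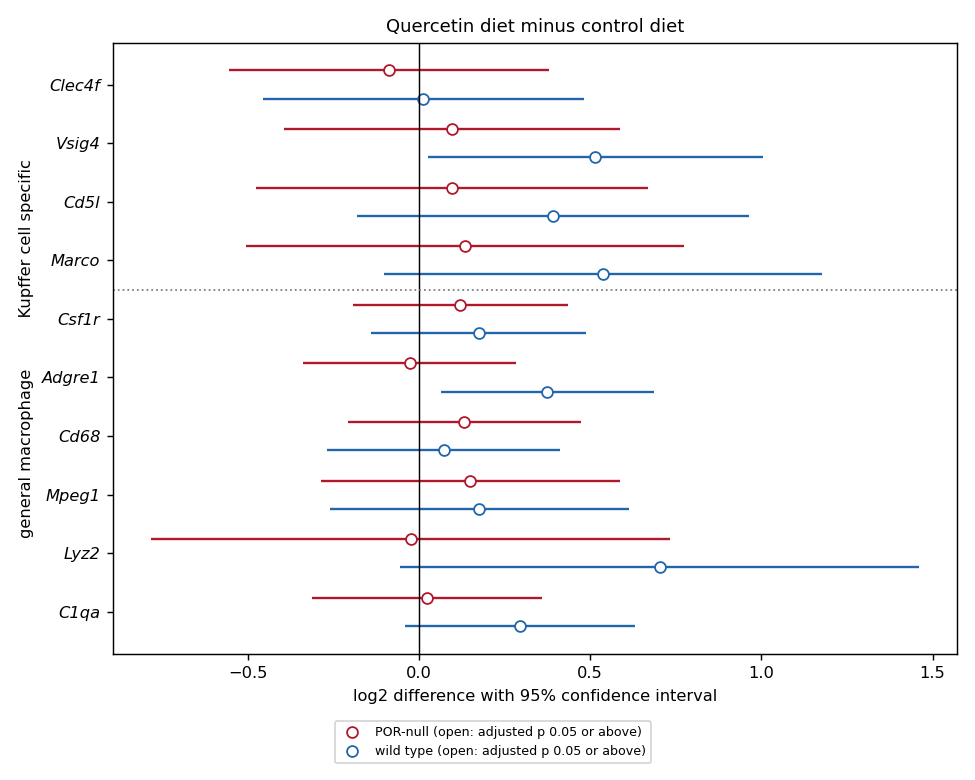
Log2 differences of the quercetin diet minus the control diet (horizontal axis) are shown with 95% confidence intervals from limma for the 10 markers, in red for POR-null and in blue for wild type. All points are open, since no adjusted p was under 0.05, and the wild-type points range from 0.01 to 0.70.

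The quercetin response of POR-null liver less the response of wild-type liver was below 0 for 9 of 10 markers, with a median of -0.28 log2 units and a range from -0.73 to 0.06. None passed by limma (0 of 10 at an unadjusted p under 0.05), and 0% of all probe sets were called (1397 of 22626 at an unadjusted p under 0.05). Among the markers farthest from 0, picked after their values were seen, were Lyz2 (-0.73, SE 0.50, adjusted p = 0.846), Vsig4 (-0.42, adjusted p = 0.855) and Adgre1 (-0.40, adjusted p = 0.822). The signs of Lyz2, Vsig4 and Adgre1 held when any 1 array was left out. Marco lay about as far from 0 as Adgre1, and its sign did not hold. Without wild-type quercetin array 3 the median was 0.08, so its sign rested on that array. The groups' 3 arrays limit the precision. At the median probe set the 95% confidence interval around a contrast of 2 groups reached 0.239 log2 units to either side. The markers varied more within groups than the median probe set, and the difference in response spans 4 groups, so their intervals were wider. For this difference the intervals ran from -1.80 to 0.34 for Lyz2 and from -0.84 to 0.04 for Adgre1.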

How the data were processed

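Total RNA of whole liver, pooled from 3 mice per array, was hybridised to 12 Affymetrix 430A arrays, 3 in each of 4 groups taken from the sample titles. The authors deposited log2 values, a scale read from their range (2.57 to 14.2). Both MAS5 and RMA are listed in the submitters' processing notes, with no role stated, so which one made the values is not known here. No further normalization or pseudocount was applied.

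The table held 22690 probe sets, and 22626 remained without 64 controls. Genes were named from the platform annotation where 1 symbol was given. limma 3.58.1 in R 4.3.3 fitted 1 mean per group over all 12 arrays (8 residual degrees of freedom) with an intensity trend of the variance, two-sided, and p-values were adjusted over all 22626 by the Benjamini-Hochberg method, with a threshold of 0.05. A gene with several probe sets was represented by the one with the highest mean, and the named genes beyond the markers were up to 4 per list with the lowest p on the average of both diets and all that passed. The candidates for likeness had a highest group mean above the median of all values. The members and lists were chosen with earlier results of these data known.

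The alternatives were quantile normalization, dropping the dimmest 40% of probe sets, other variance priors, weights per array, pools of like number as a block, only the groups compared, gene means and leaving out each array. On data simulated for the average genotype contrast over 22626 probe sets, limma called 81.8% of the probe sets shifted by 0.5 log2 units and 98.6% of the probe sets shifted by 1. False calls averaged 7.8 in 5 runs, each with 200 probe sets shifted. The shifted probe sets were picked at random from all, and the simulated noise was independent between probe sets. The markers varied more within groups than the median probe set, so the shares called are not those to be had for the markers.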

Additional observations from a re-analysis of the deposited data

How the results depend on the processing

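Signs of the marker differences between POR-null and wild type were the same under quantile normalization, the filter on dim probe sets, both other variance priors, array weights, the replicate block, fits of only the groups compared and gene means, in each of the 3 genotype contrasts. The number of markers called moved. It was 0 on the quercetin diet and 2 on average under quantile normalization, and 0, 0 and 2 on the control diet, the quercetin diet and average under the robust variance prior. On the control diet it was 0 with a variance prior without trend, with only the groups compared, with gene means and with the replicate block. After subtraction of group means, same-numbered arrays of different groups correlated at a mean r of 0.026, and 5 of 18 exceeded 0.1. For arrays of unlike number the mean r was -0.013, and 6 of 36 exceeded 0.1. Whether pool numbers mark pairs cannot be told from so few arrays per group. The block otherwise moved 1 average call, C1qa (limma adjusted p = 0.0600). Leaving out 1 array gave 0 to 5 calls on the control diet, 0 to 1 on the quercetin diet and 1 to 6 on average, while the 3 quercetin contrasts kept 0 calls.

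Leaving out 1 array reversed the sign of Csf1r on the quercetin diet (-0.013 without wild-type quercetin array 1, range -0.013 to 0.32) and of Adgre1 on average (0.0070 without wild-type quercetin array 3, range -0.14 to 0.0070). For quercetin in wild type it reversed Clec4f (-0.23 to 0.19), Csf1r (-0.034 to 0.30), Cd68 (-0.067 to 0.18) and Mpeg1 (-0.044 to 0.32). Clec4f was at -0.11 and -0.033 without wild-type control array 2 or 3 and at -0.23 without wild-type quercetin array 3. The median marker difference went to -0.018 for quercetin in POR-null liver without POR-null quercetin array 2 (range -0.018 to 0.18), and to 0.077 for the difference in response without wild-type quercetin array 3 (range -0.41 to 0.077). Leaving out 1 array changed the sign of 7 of 10 markers for quercetin in POR-null liver and of 6 of 10 for the difference in response, so single values are given there for 3 markers only, a choice made after seeing them. Under the other alternatives 2 of 10 markers, Adgre1 and C1qa, changed sign for quercetin in POR-null liver, and 0 for the difference in response. The cause of these changes was not tested. Pseudocounts were not compared, because the values were already on a log scale.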
